A study of Mus musculus with 2 samples.

Results

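Molecular chaperones are proteins that help other proteins fold, and cells keep separate sets of them in the cytosol, the mitochondria and the endoplasmic reticulum. The set examined here holds 45 genes named for these folding systems and for the unfolded protein response (UPR), the signalling that adjusts the folding capacity of the endoplasmic reticulum. Of these, 43 had a probe set annotated to that gene alone, out of 18194 genes with such a probe set. All 43 lay above the background level on both arrays, as did 9579 of the 10968 genes above it on at least 1 array. Hsf1, the transcription factor of the heat shock response, and Hsp90ab1, a cytosolic HSP90, were not analysed here. Where a gene had several probe sets, the one with the highest mean log2 signal stood for it.

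The samples were thioglycolate-elicited peritoneal macrophages, phagocytes recruited to the abdominal cavity by an injected irritant, from male C57BL6 wild-type mice aged 8 weeks. The cells were grown in medium with 10% serum to 80% confluence and then kept for 12 h either untreated (control) or with 100 ng/ml CSF1 (macrophage colony-stimulating factor), the growth factor that sustains macrophage survival and division. RNA of 1 sample per group was hybridised to an Affymetrix Mouse Genome 430 2.0 array. The comparison asks how gene expression differed after 12 h of CSF1, and within it whether the folding systems of the different compartments differed alike. The labels do not say how many mice gave the cells or whether both samples came from the same mice.

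With 1 array per group differences have no replicate check and no test is possible, and it is the number of arrays that limits how precise they are. Every difference below is a log2 ratio, CSF1 over control, or the fold it stands for, and signals are given in the deposited units with the control array first. Centring the arrays on their hybridisation spikes in place of the deposited scale would add 0.29 to the log2 ratio of each gene of the set and put the median of all measured genes at 0.28, so higher and lower here are relative to the bulk of the measured genes, whose median was 0.00. The only error that can be given is the SD between probe sets of 1 gene, which covers neither cultures nor mice. Its pooled value was 0.17 on the log2 scale over the chaperone genes with several probe sets above background and 0.29 over 3778 such genes of the whole array. Of the 43 genes, 36 (83.7%) had a log2 ratio smaller in size than this 0.29, as did 62.8% of all measured genes. Ratios of that size are not distinguished here from disagreement between probe sets.

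In heat-shocked cells, HSF1 induces the cytosolic HSP70, HSP90 and small heat shock proteins. The ATP-driven cycles of HSP70 and HSP90 are steered by DNAJ and other co-chaperones. The ring-shaped chaperonin CCT folds actin and tubulin, and a related chaperonin, HSP60 with its lid HSP10, works in the mitochondrial matrix. In the endoplasmic reticulum, unfolded proteins draw the HSP70 family member BiP (Hspa5) away from the sensors PERK, IRE1 and ATF6. PERK raises translation of ATF4 and through it Ddit3, Trib3 and Ppp1r15a, while IRE1 splices Xbp1 mRNA, and ATF6 and XBP1 induce chaperones and the machinery that returns misfolded proteins to the cytosol for degradation. Macrophages secrete many proteins, and secreted proteins fold in the endoplasmic reticulum.

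Promoter sequences from RefSeq (GRCm38.p6) were at hand for 35 of the 45 genes, in 42 windows. The 250 bases before each start site were searched on both strands for the elements of these pathways. The endoplasmic reticulum stress element ERSE, CCAAT and CCACG with 9 bases between them, is bound by ATF6 together with NF-Y, and its variant ERSE-II is ATTGG and CCACG with 1 base between them. ERSE was found in 6 of the 42 windows and in 0.113% of all 32851 windows in the table. It lay before Creld2, Dnajc3, Hsp90b1, Hspa5, Pdia6 and Syvn1. ERSE-II was found before Herpud1 and in 0.0304% of all windows, and Herpud1 also held the ATF4 element TTGCATCA, found in 0.791% of all windows. Shown are the stretches of the genes that these results turn on, 5′ to 3′ on the gene's strand with the elements in capitals, at chr2:34772010-34772058 (+) for Hspa5, chr10:86705518-86705671 (-) for Hsp90b1, chr14:118937812-118937860 (+) for Dnajc3, chr19:6046517-6046565 (+) for Syvn1 and chr8:94386302-94386402 (+) for Herpud1.
Hspa5: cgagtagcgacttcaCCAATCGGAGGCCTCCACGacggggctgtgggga
Hsp90b1: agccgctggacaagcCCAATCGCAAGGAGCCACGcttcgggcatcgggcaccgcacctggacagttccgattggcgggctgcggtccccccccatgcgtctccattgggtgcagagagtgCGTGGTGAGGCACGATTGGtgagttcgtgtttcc
Dnajc3: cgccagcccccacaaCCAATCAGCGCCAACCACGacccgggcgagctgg
Syvn1: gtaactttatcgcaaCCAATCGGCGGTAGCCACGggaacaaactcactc
Herpud1: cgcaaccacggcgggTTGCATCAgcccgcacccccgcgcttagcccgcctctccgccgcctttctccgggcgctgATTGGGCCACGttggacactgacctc

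In Hsp90b1 the element occurred in both orientations, from base -212 to -194 and from base -107 to -89 before the start site. The unfolded protein response element core TGACGTGG was in 0 of the 42 windows and in 0.563% of all windows. A match describes these letters only and is no evidence of binding in these cells.

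Heat shock elements were searched as pairs of inverted GAA units, GAANNTTC and TTCNNGAA, which read the same on both strands and can overlap each other. They were found in 6.69% and 7.17% of all windows, and in 6 and 5 of the 42 windows of this set, before Cct2, Cct5, Dnaja1, Hspa1b, Hspb1, Hspd1, Hspe1 and Hsph1. Shown are Hspb1, which had the highest ratio of the heat shock genes, at chr5:135887787-135887844 (+), and the mitochondrial pair Hspd1 and Hspe1. This pair is transcribed in opposite directions from 1 shared promoter, and their stretches are the same bases, chr1:55088044-55088091, read on the minus strand for Hspd1 and on the plus strand for Hspe1.
Hspb1: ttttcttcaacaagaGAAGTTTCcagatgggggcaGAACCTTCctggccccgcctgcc
Hspd1: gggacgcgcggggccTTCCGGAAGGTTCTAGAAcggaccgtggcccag
Hspe1: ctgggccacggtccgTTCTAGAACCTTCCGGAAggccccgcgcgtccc

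The cells' marker genes were examined before the results. All 9 macrophage markers were above background on both arrays, with a summed signal of 147487 units in the control and 122347 units with CSF1, a median log2 ratio of -0.21 and 7 of 9 below 0. Fibroblast markers were also present. All 7 were above background and above 0, with a median of 0.32 and a summed signal of 51367 units against 65019 units. Among the other lists, 5 of 8 T and NK cell markers, 5 of 6 B cell, 5 of 7 plasma cell, 2 of 6 neutrophil, 4 of 8 eosinophil and mast cell, 1 of 6 dendritic cell, 4 of 7 mesothelial and 3 of 6 endothelial markers were above background on at least 1 array. The summed signal of the T and NK cell list was 3152 units in the control and 2026 with CSF1, with 4 of 5 lower and Gzma at 1554 and 472 units (-1.72). Lower values were also seen for all 4 eosinophil and mast cell markers (median -0.21), the dendritic cell gene Zbtb46 (-1.14) and all 3 endothelial markers (median -0.64, with 2 of the 3 at background with CSF1). Both neutrophil markers were higher (median 0.31), and the B cell, plasma cell and mesothelial markers went both ways, with medians of -0.13, 0.00 and 0.10. Cd3e, Cd4, Derl3, Tnfrsf17, S100a9, Cxcr2, Msln, Pecam1 and Cdh5 were among the defining genes at background on both. The 18 hybridisation spikes averaged -0.29 ± 0.13 (log2, SD between spike probe sets). As a sign of RNA quality, 3′ over 5′ signal stood at 1.35 and 1.38 for Actb on the control and CSF1 arrays, and at 1.03 and 1.40 for Gapdh. As control genes on their brightest probe sets, Actb had a log2 ratio of -0.30 and Gapdh also -0.30. In such bulk samples, fewer cells of a type and less RNA per cell cannot be told apart, and the part of these values in the ratios below was not tested.

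Across the set the ratios were small. None of the 43 genes was 2-fold higher or lower, where 0.939% of all measured genes were higher and 0.711% were lower by this much. Past 1.5-fold, 1 gene was higher (Ddit3) and 1 lower (Herpud1), where the shares over all measured genes were 5.84% and 5.32%. The members' median was -0.05, with 17 above 0 and 26 below, beside a median of 0.00 over all measured genes, of which 50.1% were above 0 and 49.9% below. The SD of the 43 ratios was 0.21, against 0.37 over all measured genes, a wider set that includes many weaker signals. By compartment, genes of the cytosol (19 measured) had a median of 0.01, with 10 above 0 and 9 below, while genes of the endoplasmic reticulum for folding and degradation (15 measured) had a median of -0.15, with 3 above 0 and 12 below.

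**Figure D1:**
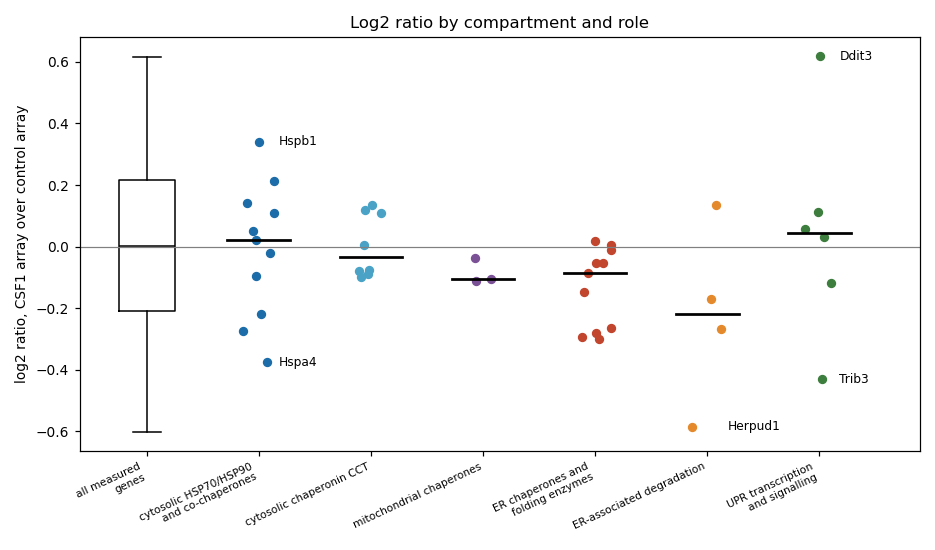
Log2 ratio (CSF1 over control) (vertical axis) for each gene (points) by compartment and role, with the group median as a bar; the box gives the median, quartiles and the 5th and 95th percentiles of the 10968 measured genes. Ddit3 at 0.62 and Herpud1 at -0.59 are the highest and lowest points, and 9 of 11 genes of endoplasmic reticulum folding lie below 0.

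The difference between the compartment medians was -0.16 from endoplasmic reticulum to cytosol, and no test of it is possible with 1 array per group. Of the 11 other ways of processing the arrays, 6 shift all genes alike or leave these genes untouched and so give the same value. The other 5 gave -0.19 to -0.05, with -0.05 when all probe sets of a gene were averaged, those below background included. Since every gene comes from the same 2 arrays, these values say nothing about other cultures.

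The chaperones of the endoplasmic reticulum lumen were lower by a little or near 0, with a median of -0.09. Hspa5, which encodes BiP, the main HSP70 of the compartment and the brake on the stress sensors, had 22667 units in the control and 18662 units with CSF1, 1.21-fold lower. All 3 of its probe sets were below 0, and they averaged -0.36 ± 0.10 (SD between probe sets, log2). Hsp90b1, the HSP90 of the endoplasmic reticulum (GRP94), which folds Toll-like receptors and integrins, stood at 12712 and 10321 units, 1.23-fold lower, and both probe sets together averaged -0.29 ± 0.02. These are bright probe sets, and on these arrays the 517 genes with a mean log2 signal of at least 13 had a median ratio of -0.09. The control genes Actb and Gapdh, both at -0.30, were as low as these chaperones. With a loess correction for signal level the ratio of Hspa5 was -0.15 and that of Hsp90b1 -0.23. The first value is nearer to 0 by over 1.5 times.

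Pdia4, a protein disulfide isomerase, was 1.23-fold lower, with 2469 units in the control and 2013 units with CSF1. Dnajc3 (p58IPK), a BiP co-chaperone that also inhibits PERK, was 1.20-fold lower, with 3487 and 2900 units; of its 5 probe sets 4 were lower, for a mean of -0.18 ± 0.17. These are dimmer probe sets, and after the loess correction both ratios were slightly further from 0, at -0.32 for Pdia4 and -0.29 for Dnajc3. The disulfide isomerase Pdia6 followed at 6065 and 5469 units, 1.11-fold lower.

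The other lumenal genes were nearly level. Dnajb9 and Dnajb11, DNAJ co-chaperones of BiP, stood at 3707 and 3750 units and at 2945 and 2924 units, with log2 ratios of 0.02 and -0.01. Sdf2l1, which works with BiP and Dnajb11, had 2925 units in the control and 2934 units with CSF1. The secreted stress proteins Manf and Creld2 both had a ratio of -0.05, Manf with 8724 and 8404 units and Creld2 with 1700 and 1640 units. Hyou1, the large HSP70-like nucleotide exchange factor of BiP, had no settled direction. Its brightest probe set gave 2230 and 2100 units (-0.09) and its other measured one 496 and 829 units (0.74).

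**Figure D2:**
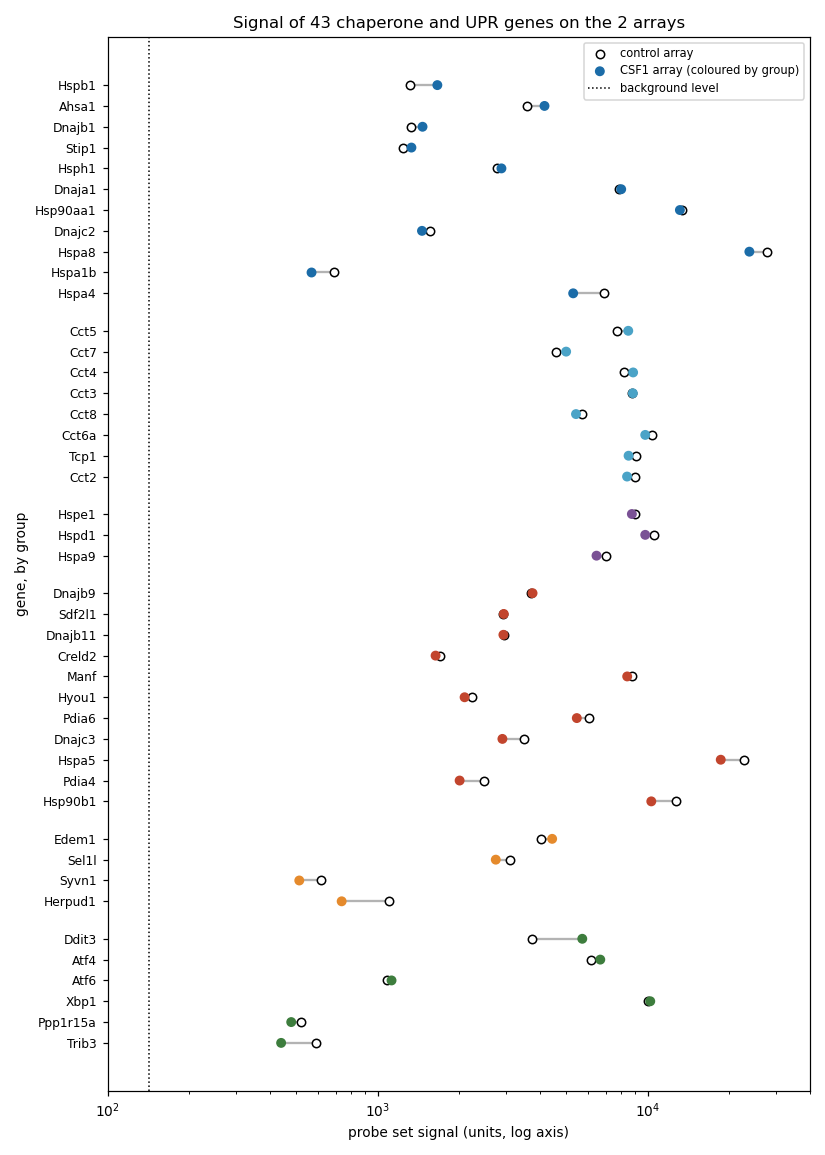
Signal of the brightest probe set of each of the 43 genes (horizontal log axis, in units of the deposited signal) on the control array (open circles) and the CSF1 array (filled circles, coloured by group), with the background level as a dotted line. All lie above the background level of 142 units, and the widest gaps are those of Ddit3, Herpud1 and Trib3.

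Among the genes of endoplasmic reticulum-associated degradation, 3 of 4 were lower, with a median of -0.22. Herpud1, a membrane protein that assembles the degradation complex and a classical target of the unfolded protein response, was the lowest of the whole set. Its signal was 1105 units in the control and 736 units with CSF1, 1.50-fold lower, and 767 against 460 units on its other probe set, 1.67-fold lower. The mean of both was -0.66 ± 0.11 (SD between probe sets), larger than the disagreement between them. The ubiquitin ligase gene Syvn1 (HRD1) was 1.20-fold lower, at 618 and 513 units, and its probe sets gave -0.31 ± 0.06. Its partner Sel1l was 1.13-fold lower, at 3087 and 2740 units, with all 5 probe sets below 0 and a mean of -0.19 ± 0.14. Edem1, a lectin that hands misfolded glycoproteins to this complex, was at 4035 and 4432 units (0.14) on 1 probe set and at -0.08 on the other, so no direction can be given for it.

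The regulators of the unfolded protein response went both ways, with a median of 0.04 that was -0.09 when the probe sets above background on both arrays were averaged. Ddit3, which encodes the transcription factor CHOP, was the highest of the set at 3730 units in the control and 5730 units with CSF1, 1.54-fold higher. It rests on 1 probe set, since its other one was at background on both arrays. Atf4, the transcription factor upstream of it, had 6181 and 6681 units, a ratio of 0.11, and -0.04 on its other measured probe set. Trib3, a pseudokinase gene that ATF4 and CHOP induce, was lower instead, at 592 and 439 units, 1.35-fold, and its 2 probe sets had a mean of -0.41 ± 0.03. Ppp1r15a (GADD34), the phosphatase subunit that reverses PERK signalling, stood at 520 and 479 units (-0.12).

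The sensors' own transcription factor genes were near 0. Xbp1 had 10021 units in the control and 10230 units with CSF1, and its 4 probe sets averaged -0.07 ± 0.10. These probe sets give total Xbp1 signal here, and spliced Xbp1 mRNA was not distinguished. Atf6 had 1082 and 1126 units (0.06), and -0.26 on its other probe set above background on both arrays. A further one had 117 units in the control, under background, and 302 units with CSF1.

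**Figure D3:**
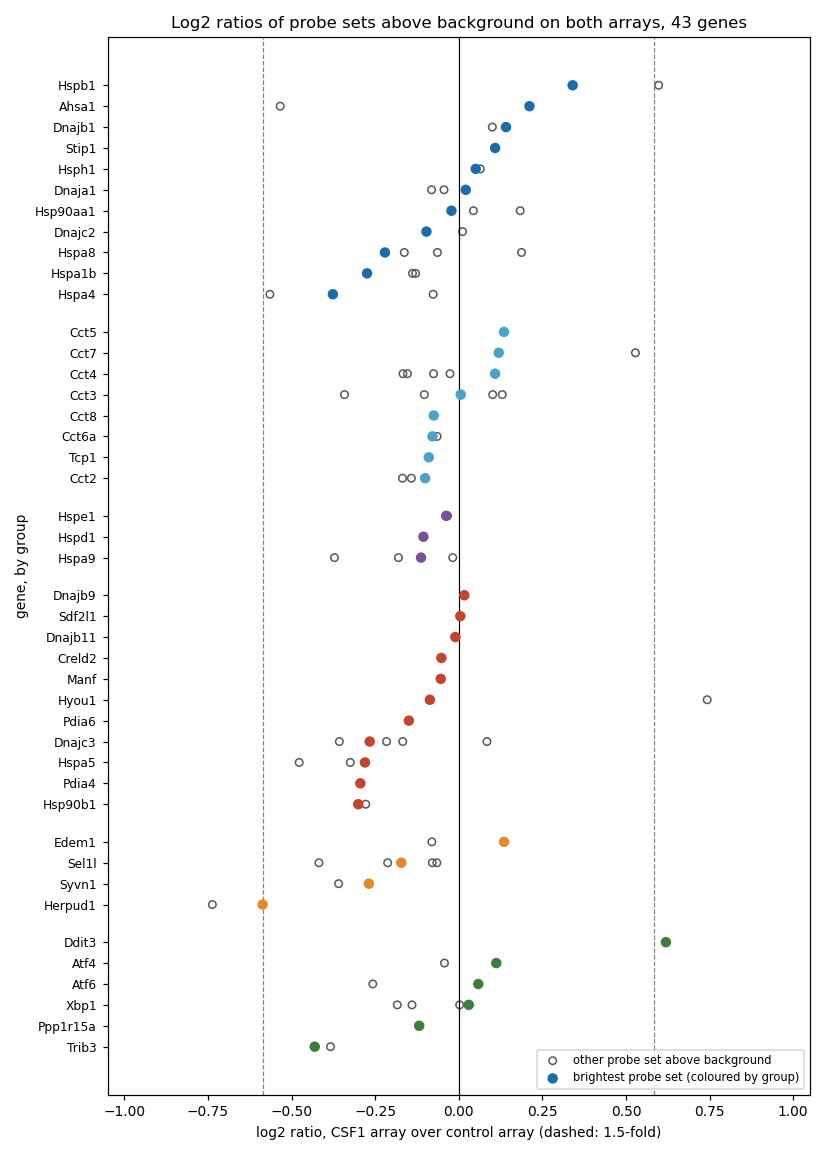
Log2 ratio (CSF1 over control) (horizontal axis) for every probe set above background on both arrays; filled points are the brightest probe set of each gene, coloured by group, open circles the others, and dashed lines mark 1.5-fold. Both probe sets of Herpud1 and of Trib3 lie left of 0, those of Ahsa1, Hyou1 and Edem1 lie on both sides, and Ddit3 has 1 point.

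The cytosolic heat shock genes had no common direction, with 6 of 11 above 0 and a median of 0.02. The highest was Hspb1 (HSP25), a small heat shock protein that holds unfolded proteins without ATP, with 1315 units in the control and 1665 units with CSF1, 1.27-fold higher. Its 2 probe sets had a mean of 0.47 ± 0.18 (SD between probe sets). At the other end was Hspa4, an HSP110-type nucleotide exchange factor of HSP70, with 6882 and 5302 units, 1.30-fold lower, and a mean of -0.34 ± 0.25 over 3 probe sets. Hsph1, which encodes another HSP110, was near level at 2776 and 2876 units (0.05).

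The cytosolic HSP70 genes gave no common direction either. Hspa1b, the stress-inducible HSP70, stood at 689 and 569 units, 1.21-fold lower, and the 3 probe sets averaged -0.18 ± 0.08. These can share signal with its near-identical copy Hspa1a, which had a ratio of -0.07 on a probe set of its own. Hspa8, the constitutive HSP70, had 27756 units in the control and 23820 units with CSF1 (-0.22). This ratio was -0.07 after the loess correction. Its 2 other probe sets marked as shared were at -0.16 and -0.06. The 1 probe set not marked as shared was at 0.19, with far weaker signals of 242 and 276 units. The direction of Hspa8 is thus not settled. Outside the set, Hspa2 had 269 and 336 units (0.32), and Hspa14 was at 0.14 on its brightest probe set and at -0.74 on its other.

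Hsp90aa1, the inducible cytosolic HSP90, was at 13374 and 13172 units, and its 3 measured probe sets averaged 0.07 ± 0.11. Its activator Ahsa1 was at 3586 and 4151 units (0.21) on 1 probe set and at -0.53 on the other. Stip1 (HOP), which links HSP70 to HSP90, had 1238 and 1335 units (0.11). On the brightest probe sets, neither the HSP90 gene nor these helpers differed by more than the pooled SD of 0.29.

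The DNAJ genes were also close to level. Dnajb1, the stress-inducible partner of HSP70, stood at 1330 units in the control and 1467 units with CSF1, and both its probe sets were higher, with a mean of 0.12 ± 0.03. Dnaja1 had 7870 and 7985 units and a mean of -0.03 ± 0.05 over 3 probe sets. Dnajc2, which acts on nascent chains at the ribosome, had 1562 and 1461 units (-0.10).

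All 8 genes of the chaperonin CCT lay between -0.10 and 0.14, with a median of -0.03 and 4 on each side of 0. Its 8 products are related but different subunits that together build each of the stacked rings, and on the brightest probe sets all of their genes lay within the pooled SD of 0.29. The lowest was Cct2, with 9002 and 8395 units, and the highest Cct5, with 7722 and 8480 units. The other signals on the control and CSF1 arrays were 8784 and 8821 units for Cct3, 8198 and 8839 for Cct4, 10351 and 9802 for Cct6a, 4596 and 4993 for Cct7, 5720 and 5431 for Cct8, and 9049 and 8504 for Tcp1. Another probe set of Cct7 gave 0.53, and the lowest of Cct3 was at -0.34. For Cct4, the 4 other probe sets above background were all below 0, from -0.17 to -0.03. Cct2, Cct3 and, through an ending in _a_at, Cct8 had no measured value on probe sets not counted as shared. Without these genes, and with the ratios of the others unchanged, the group median was 0.11. Its sign therefore depends on the genes counted.

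The 3 mitochondrial chaperone genes had a median of -0.11 and were all below 0 on their brightest probe sets, by less than the pooled SD of 0.29. Hspd1 (HSP60) had 10547 units in the control and 9802 units with CSF1, a ratio of -0.11. Hspe1 (HSP10), which shares its promoter, had 8977 and 8746 units, and its 2 probe sets were at -0.04 and -0.03. Hspa9, the mitochondrial HSP70 (mortalin), stood at 6996 and 6470 units, and the 4 of its probe sets that both arrays showed above background were all below 0 with a mean of -0.17 ± 0.15. Its other probe set had 32.5 and 162 units, at background in the control, and with it the mean of all probe sets was 0.33.

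**Figure D4:**
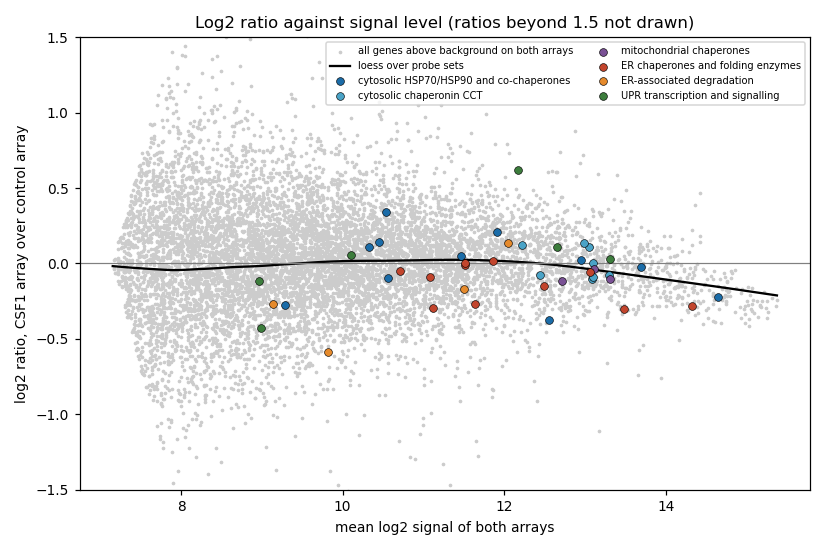
Log2 ratio (CSF1 over control) (vertical axis) against the mean log2 signal of both arrays (horizontal axis) for genes above background on both arrays (grey) and for the 43 genes (coloured by group), with the loess curve over probe sets in black. The curve bends below 0 among the brightest genes, where Hspa5 and Hspa8 lie, while Herpud1, Trib3 and Ddit3 lie in its flat part.

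The promoter elements shown above divided the set as follows. All 7 genes with ERSE or ERSE-II were below 0, from Creld2 (-0.05) to Herpud1 (-0.59), with a median of -0.27. With the mean of all probe sets Pdia6 stood at 0.39 relative to all measured genes, and the other 6 stayed below 0. All 7 are genes of endoplasmic reticulum folding or degradation, of which 12 of 15 were below 0. Of all measured genes with a window, 20 of 35 in the set and 4413 of 8898 on the array were below 0. The 8 genes with a heat shock element, all cytosolic or mitochondrial, had 4 above 0 and 4 below and a median of -0.01. The elements thus kept to their compartments, but ERSE or ERSE-II did not cover all genes of the endoplasmic reticulum. Among these, Hyou1 and Manf had no window. Those with a window but without ERSE or ERSE-II were Pdia4 (-0.29), Sel1l (-0.17), Dnajb11 (-0.01), Sdf2l1 (0.00), Dnajb9 (0.02) and Edem1 (0.14, but -0.08 on its other probe set). Whether the lower ratios go with the element or with the compartment was not tested. Outside the set, genes with these elements were not mostly lower: of the 11 other measured genes with ERSE or ERSE-II in the window, 7 were above 0, with a median of 0.06. Among these, the lectin chaperones Canx and Calr were at -0.15 and 0.05.

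Genes of the same pathways outside the set were read from 5 lists with 112 genes, of which 104 were measured. None was past 2-fold, where 0.939% of all measured genes were higher and 0.711% lower by this much. By at least 1.5-fold 6 were higher and 2 lower, where the shares over all measured genes were 5.84% and 5.32%. Their median was 0.02 with 58 above 0. In the list of other chaperones and folding enzymes of the endoplasmic reticulum, 14 of 24 were above 0, with a median of 0.04, beside 2 of 11 and -0.09 in the set itself. The highest were the prolyl isomerase Fkbp7 (1167 and 2066 units, 1.77-fold higher), the disulfide isomerase Pdia5 (392 and 608 units, 1.55-fold) and Txndc5 (2910 and 3724 units, 1.28-fold, but -0.11 on its other probe set). The lowest were the oxidase Ero1a (2778 and 2058 units, 1.35-fold lower, with a mean of -0.43 ± 0.08 over 3 probe sets), Dnajc1 (-0.31, but -0.04 and 0.04 on its others) and the glycoprotein-specific isomerase Pdia3 (18172 and 14966 units, -0.28). The fibroblast markers given above were higher on the same array, and their part in the ratios of Fkbp7 and Pdia5 was not tested.

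The other sensors and targets of the unfolded protein response, not only those around PERK and ATF4, again went both ways. Asns, asparagine synthetase and an ATF4 target, was 1.52-fold higher, at 1975 units in the control and 3010 units with CSF1, with a mean of 0.68 ± 0.10 over 2 probe sets. Creb3 and Nupr1 followed at 0.35 and 0.33, higher on all their probe sets. Ddit4, a stress-induced inhibitor of mTORC1, had 248 units on the control array and was at background on the CSF1 array, at least 1.75-fold lower. Creb3l2 was lower by 1.53-fold on 1 probe set and at 0.01 on its other one. Eif2ak3, the gene of PERK itself, was 1.49-fold lower at 1312 and 880 units on 1 probe set, and the IRE1 gene Ern1 1.15-fold lower, at -0.20 on both its probe sets. This list of 22 measured genes had a median of -0.03, with 10 above 0.

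In the remaining lists, the other cytosolic chaperones and co-chaperones had a median of 0.01 (17 of 32 above 0). Their highest were the prefoldin subunit Pfdn1 (649 and 1098 units, 1.69-fold higher), Hspbp1 (0.47) and Bag2 (0.42), and their lowest Hspa4l (-0.32, up to 0.07 on its others), Bag6 (-0.25) and Dnajb4 (-0.23). Hspa4l belongs to the same HSP110 family as Hspa4. Serpinh1 (0.12) was counted in this cytosolic list, although its product is a chaperone of the endoplasmic reticulum. The other mitochondrial chaperones and proteases had a median of 0.17 (6 of 10 above 0), the opposite side from Hspd1, Hspe1 and Hspa9. Here the protease genes Htra2 (1.59-fold, 0.05 on its other probe set), Clpp (1.44-fold, with a mean of 0.52 ± 0.00 over 2 probe sets) and Lonp1 (1.24-fold) were highest, and Clpx (-0.41), Dnaja3 (-0.19, but 0.20 on its other probe set) and Hscb (-0.09) lowest. Clpp and Clpx encode the protease and the ATPase of 1 complex. The other degradation genes of the endoplasmic reticulum had a median of 0.03 (11 of 16 above 0). The ubiquitin ligase gene Rnf5 was highest (846 and 1288 units, 1.52-fold higher), followed by Man1b1, at background on the control array and at least 1.35-fold higher, and Ufd1 (0.23, but -0.10 on its other probe set). Erlec1 (-0.16, but 0.51 on its other), Derl1 (-0.14, but -0.01 to 0.15 on its others) and Faf2 (-0.08) were lowest.

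Probe sets of 1 gene often gave different signs where the ratio was small. Among the 29 genes with another probe set above background on both arrays, 33 of 53 such probe sets had the sign of the brightest one, and in 16 genes all of them did. These 16 include Herpud1, Trib3, Hspb1, Hspa4, Hspa1b, Hspa5, Hsp90b1, Syvn1 and Sel1l. The other 14 genes, Ddit3 and Pdia4 among them, had 1 probe set above background on both arrays and so no such check. Among them, Pdia6 had another at 93.1 units in the control, under background, and 175 units with CSF1, on the opposite side of 0 from its brightest.

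**Figure D5:**
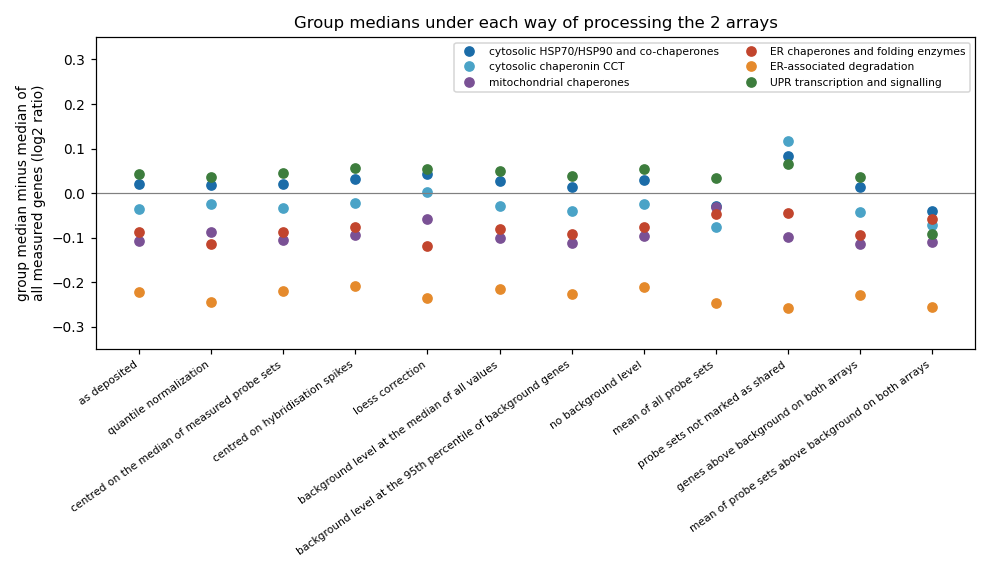
Median log2 ratio of each group minus the median of all measured genes (vertical axis) under each way of processing the 2 arrays (horizontal axis), coloured by group. The 3 background levels and the restriction to genes above background on both arrays leave these genes' own ratios as they are. Probe sets not marked as shared leave out some genes, among them Cct2, Cct3, Cct8, Hspa5 and Hsp90b1. The brightest probe sets of Cct8, Hspa5 and Hsp90b1 count as shared only through an ending in _a_at, which is no mark of signal from other genes. The degradation genes lie between -0.26 and -0.21. The endoplasmic reticulum chaperones lie between -0.12 and -0.04, where -0.04 is the value without Hspa5 and Hsp90b1. The cytosolic groups and the regulators change sign with the processing.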

How the data were processed

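The deposited values are probe set intensity values on a linear scale; per the series' design text the authors used GeneSpring 6.2, and the summarization and scaling are not given in the sources used here. Groups were taken from the labels. Of 45101 probe sets, 34958 carried 1 gene symbol, 932 several and 9211 none, and those with 1 symbol were checked by Entrez ID against RefSeq (204 without a match). Values were moved to log2 without rescaling. The background level, 142 units, was the 90th percentile of the signals of 91 genes (156 probe sets, from a list of 101) that belong to unrelated tissues. Values under it were set to it, which gives a lower bound for a gene at background on 1 array. These background genes were not all unexpressed, since 10 of their probe sets exceeded the level on both arrays. A gene was measured when at least 1 array was above it. No test was computed. Thresholds were 2-fold and 1.5-fold. The members, lists and compartments were chosen with earlier results of these data known, as was the omission of Npy from the background genes. The rule for named genes took all 45 members. Per list of other pathway genes, it took those past 1.5-fold above background on both arrays and the 3 highest and 3 lowest. The ATF4, PERK and IRE1 genes named beside them, Hspa1a, Hspa2, Hspa14 and Serpinh1 were added after their values were seen. So were the ERSE genes Canx and Calr. Alternatives were 4 rescalings (quantile, median, spikes, loess with span 0.3), 3 background levels, 2 probe set rules, genes above background on both arrays, thresholds of 1.5-fold and 3-fold and, added after seeing the data, the mean of probe sets above background on both arrays. The procedure was tested on simulated data with changes of 1.5 on the log2 scale in genes well above background. These are larger than any ratio of the set, so the simulation does not show how well ratios of the reported size are recovered. Python 3.11.15, numpy 2.4.6, pandas 2.3.3, statsmodels 0.14.6 and matplotlib 3.10.9 were used.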

Additional observations from a re-analysis of the deposited data

How the results depend on the processing

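No paired analysis was possible because each group holds 1 array, and for the same reason no array could be left out. The 3 background levels and the restriction to genes above background on both arrays leave all 43 ratios as they are, by construction. Of 291 values of single genes under the other alternatives, 236 moved by less than the SD between probe sets, 0.29, and 55 by more. Part of this count is also fixed by construction. The spikes averaged -0.294, and centring on them shifts every gene by that size, just past the SD of 0.289. All 43 values under it are therefore among the 55. The median rescaling shifts every gene alike by less than this SD, so none of its values could count as moved. The values that moved through the choice of probe sets include Hsp90aa1 (-0.66), Dnajc2 (0.71) and Cct8 (-1.58) with the mean of all probe sets, which takes in probe sets at background. The lower ratio of Herpud1 relative to all measured genes lay between -0.667 and -0.575 and that of Ddit3 between 0.519 and 0.631, against 0.585 for 1.5-fold. Relative to all measured genes, Herpud1 was past 1.5-fold in 7 of 11 alternatives and Ddit3 in 10 of 11. Centring on the hybridisation spikes put the median of all measured genes at 0.28. It moved the medians to 0.24 for all members, 0.32 for cytosolic HSP70, HSP90 and co-chaperones, 0.26 for CCT, 0.19 for mitochondrial chaperones, 0.21 for endoplasmic reticulum chaperones, 0.074 for degradation and 0.34 for regulators of the unfolded protein response, and in the lists of other genes to 0.31 (cytosolic), 0.47 (mitochondrial), 0.33 (endoplasmic reticulum chaperones), 0.32 (degradation) and 0.26 (unfolded protein response). Under it 312 measured genes were at least 2-fold higher and 19 lower, with 2 other pathway genes higher. The mean of probe sets above background on both arrays gave the regulators -0.086, and 66 and 51 measured genes past 2-fold. Probe sets not marked as shared gave CCT 0.11, without Cct2, Cct3 and Cct8. The mean of all probe sets gave the other unfolded protein response genes -0.10, with 128 measured genes, 1 member (Cct8) and 3 other pathway genes lower and 2 higher. With the median of all values as background, 195 measured genes were 2-fold higher and 197 lower, with 1 other pathway gene lower; at the 95th percentile of background genes these were 62 and 50; and with none 1743 and 1925, with 1 other pathway gene higher and 2 lower. At 1.5-fold as deposited, 641 measured genes were higher and 584 lower, with 1 member each way and 6 and 2 other pathway genes; at 3-fold, 9 and 6 measured genes. The causes were not tested beyond what each alternative changes by construction.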
